A study of Mus musculus with 8 samples.

Results

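Cells labelled early erythroid progenitors, of the red cell lineage, were followed in single-cell RNA sequencing of the mouse femur, in unfractured mice and in mice whose fracture was healing. The cells were picked by UMI counts of 9 genes, where a UMI (unique molecular identifier) is a tag that lets each captured RNA molecule be counted once. A cell was taken when Car1, Klf1, Rhag and Ermap summed to at least 4 UMIs, Alas2 had at most 1 UMI, Pf4 and Gp9 together had at most 2 UMIs, and Mcpt8 and Prss34 together were under 20 per 10000 UMIs. Of 45328 cells with 500 to 6000 detected genes and at most 25% mitochondrial UMIs, 2176 met this rule and are called members. Their own values show that the label fits only some of them, since many, above all after fracture, carried later genes such as those of globin.

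All mice were C57BL/6 females aged 12 weeks when bone was taken. In the Fracture group the left leg had been broken by three-point bending at 10 weeks and stabilised with a nail in the marrow cavity, and bone was taken at day 14. The Control group was unfractured. Sample titles such as Control-1 rep1 were read as preparation 1, library 1, which the titles do not spell out. On that reading each group had 2 preparations, and each preparation was run as 2 libraries with the Chromium 3′ kit. Magnetic beads had removed cells positive for blood lineage markers, CD45 or CD117 from the suspensions, so the members are the erythroid cells that this depletion left behind and not a census of the marrow. The labels do not say whether a preparation came from 1 animal or a pool, so p-values measure the spread between these preparations, which may be technical.

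Red cells arise from progenitors that lose stem and progenitor genes such as Kit, Gata2 and Myb while the transcription factors GATA1 and KLF1 take over. They then divide rapidly, take up iron through the transferrin receptor, make haem and fill with globin, and membrane proteins such as band 3 appear. Of the genes that chose the members, Klf1 encodes the erythroid Krüppel-like factor, Rhag the Rh-associated glycoprotein, Car1 carbonic anhydrase 1 and Ermap an erythroblast membrane protein, while Alas2 encodes the erythroid enzyme that starts haem synthesis.

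The promoters of 3 genes that chose the members and of 2 globin genes are shown, since globin load is the measure by which the members are sorted below. Each runs from 250 bases before to 50 bases after the transcription start along the gene's own strand, from RefSeq on GRCm38.p6. Capitals mark the GATA motif, AGATAA or TGATAA, and the CACCC box, CCACACCC, CCGCACCC or CCACGCCC, on either strand.
Klf1: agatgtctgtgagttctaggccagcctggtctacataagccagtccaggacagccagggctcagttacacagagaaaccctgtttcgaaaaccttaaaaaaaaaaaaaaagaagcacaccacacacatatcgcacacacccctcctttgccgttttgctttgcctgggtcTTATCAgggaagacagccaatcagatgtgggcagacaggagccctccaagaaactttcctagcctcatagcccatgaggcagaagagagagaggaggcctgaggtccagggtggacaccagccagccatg
Rhag: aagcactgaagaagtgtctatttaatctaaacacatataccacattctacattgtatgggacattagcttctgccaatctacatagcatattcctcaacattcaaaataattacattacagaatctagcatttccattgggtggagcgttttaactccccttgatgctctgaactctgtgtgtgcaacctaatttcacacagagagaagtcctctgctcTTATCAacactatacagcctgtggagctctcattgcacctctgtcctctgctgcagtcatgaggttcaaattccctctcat
Ermap: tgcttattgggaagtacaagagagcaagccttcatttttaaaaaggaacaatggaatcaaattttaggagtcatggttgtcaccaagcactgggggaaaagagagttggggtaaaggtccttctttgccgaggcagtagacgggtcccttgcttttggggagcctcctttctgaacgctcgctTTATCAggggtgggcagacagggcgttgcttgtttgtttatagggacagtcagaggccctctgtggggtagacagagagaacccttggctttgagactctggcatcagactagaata
Hbb-bs: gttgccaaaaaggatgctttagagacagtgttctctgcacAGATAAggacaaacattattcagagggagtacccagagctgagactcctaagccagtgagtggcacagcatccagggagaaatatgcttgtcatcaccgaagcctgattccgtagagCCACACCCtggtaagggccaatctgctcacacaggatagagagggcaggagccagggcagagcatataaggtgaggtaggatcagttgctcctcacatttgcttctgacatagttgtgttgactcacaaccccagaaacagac
Hba-a1: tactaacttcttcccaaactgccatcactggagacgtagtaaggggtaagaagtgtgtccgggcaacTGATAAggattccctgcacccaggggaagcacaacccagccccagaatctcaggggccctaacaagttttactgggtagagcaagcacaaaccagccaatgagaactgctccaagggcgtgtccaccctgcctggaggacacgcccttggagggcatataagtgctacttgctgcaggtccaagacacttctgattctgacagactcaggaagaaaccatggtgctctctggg
The windows lie at chr8:84901732-84902031 on the plus strand for Klf1, chr17:40810899-40811198 on the plus strand for Rhag, chr4:119189946-119190245 on the minus strand for Ermap, chr7:103827879-103828178 on the minus strand for Hbb-bs and chr11:32283422-32283721 on the plus strand for Hba-a1. All 5 held 1 GATA motif, and that of Hbb-bs also held 1 CACCC box. Of the other 2 globin genes behind globin load, not shown, Hba-a2 held 1 GATA motif and Hbb-bt neither motif. Among 32534 promoters of this length, 18.5% held the GATA motif and 10.3% the CACCC box. Of 75 erythroid genes looked up, 54 had a promoter in the table, of which 37% held the GATA motif and 11.1% the CACCC box. A match is a run of letters, and binding was not tested.

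Depth and composition differed between the preparations. The median member held 4739 and 10053 UMIs in Control preparations 1 and 2 and 8646 and 8885 UMIs in Fracture preparations 1 and 2, and values below keep this order. The Control tables listed barcodes down to 1 UMI and the Fracture tables only from 1929 UMIs. Members over 10% mitochondrial UMIs made up 47.0% and 33.6% of the Control and 0.538% and 2.10% of the Fracture members. Markers of chondrocytes, osteoblasts, other stroma, endothelium and smooth muscle (46 genes) took over 2% of UMIs in 5.80% and 2.80% of the Control and 23.7% and 23.4% of the Fracture members. Results are therefore also given within both limits, that is, in members with at most 2% stromal marker UMIs and at most 10% mitochondrial UMIs. The 367 genes whose symbols start with U or with a lower-case n had no row in the tables of Control preparation 1 and are not used here. The libraries of a preparation differed by more than counting noise and were summed, and 1 member barcode occurred in 2 libraries.

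Genes that the rule did not use are given next. The early erythroid marker list held Ctse beside Car1, Klf1 and Ermap. That list was set with earlier results of these data known, so Ctse is no independent support for the label. Ctse, which encodes the protease cathepsin E, was at 375 and 816 CPM in Control and 687 and 712 CPM in Fracture members, where CPM are counts per 1000000 UMIs of the summed members, and at 4.28 to 63.2 CPM over all other cells. With each cell thinned to 2000 UMIs, Ctse was seen in 40.2% and 65.8% of Control members and 63.4% and 64.7% of Fracture members. Chondrocyte cells, with at least 5% of UMIs from Col2a1 and Acan, served as background and held Ctse in 0.103% to 0.565% of cells, at median depths of 13136 to 22205 UMIs against 5377 to 10542 UMIs in members. Hemgn, a nuclear protein of blood progenitors and erythroblasts, was seen in 36.0% and 59.8% of Control members and 62.9% and 61.2% of Fracture members, and in 0% to 0.282% of chondrocyte cells. Markers of other blood lineages were also summed. The megakaryocyte list (12 genes) summed to 60.4 to 335 CPM and the basophil and mast cell list (10 genes) to 42.6 to 383 CPM. The rule itself capped genes of both lists, so these levels do not bear on the label, and in Fracture the megakaryocyte and basophil sums were 47.8% and 62.7% and 58.4% and 63.0% of the levels in other cells. The neutrophil list summed to 19.8 to 236 CPM with Ly6g at 0, the monocyte and dendritic list to 13.5 to 107 CPM with Siglech at 0, and the lymphoid list to 24.7 to 193 CPM with Igll1, Cd3e and Ms4a1 at 0. The lymphoid sum was 51.8, 5.20, 69.6 and 50.7% of that in other cells, so it was not low against them outside Control preparation 2. The neutrophil sum was 6.46 to 39.0% and the monocyte and dendritic sum 4.58 to 27.7% of that in other cells.

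The word early describes some of the members and not others. The late erythroid list (10 genes, globins included) summed to 7563, 22740, 70060 and 84280 CPM, and 222 members drew 10% or more of their UMIs from globin genes. Alas2, which the rule used to keep late cells out, did not exceed 7 UMIs in any cell of the series. At least 5 Alas2 UMIs were reached by 9 cells, too few for a late class, so no ratio to such a class and no test against it were computed.

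At the edge of the rule, 160 members had a sum of 4 and 168 otherwise eligible cells a sum of 3. Their median depths were 3664 and 3648 UMIs, and 17.5% and 32.1% of them were over 2% stromal marker UMIs. The 278 members with 1 Alas2 UMI had a median of 4.53% globin UMIs, and the 76 cells just outside, with 2 Alas2 UMIs, had 31.9%. Of 2595 cells with a sum of at least 4, the limit on Pf4 and Gp9 concerned 267, that on Mcpt8 and Prss34 14 and that on Alas2 152. The rule genes themselves are given as a description. Car1 was at 1823 and 1758 against 1412 and 1132 CPM, Klf1 at 338 and 438 against 386 and 374 CPM, Rhag at 157 and 279 against 266 and 231 CPM, Ermap at 433 and 530.0 against 396 and 365 CPM and Alas2 at 4.38 and 7.83 against 28.2 and 17.0 CPM in Control against Fracture members.

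Members made up 2.7% and 17.2% of Control cells and 1.57% and 2.24% of Fracture cells, by preparation, from 345, 1359, 186 and 286 cells. The libraries of Control preparation 2 held 16.5% and 17.9%, and no other library held more than 2.74%. The means were 9.93% ± 10.2 and 1.90% ± 0.473 (SD, n = 2 each), and both Control preparations lay above both Fracture preparations. The two-sided exact permutation test over preparations gave p = 0.33, the smallest that 2 against 2 allow. Without Control preparation 2 the difference shrank from -8.03 to -0.803 percentage points. With all cells limited to 10% mitochondrial UMIs the shares were 1.61% and 13.5% in Control and 1.57% and 2.21% in Fracture. There, and with a rule sum of at least 8 UMIs, the groups overlapped.

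**Figure D1:**
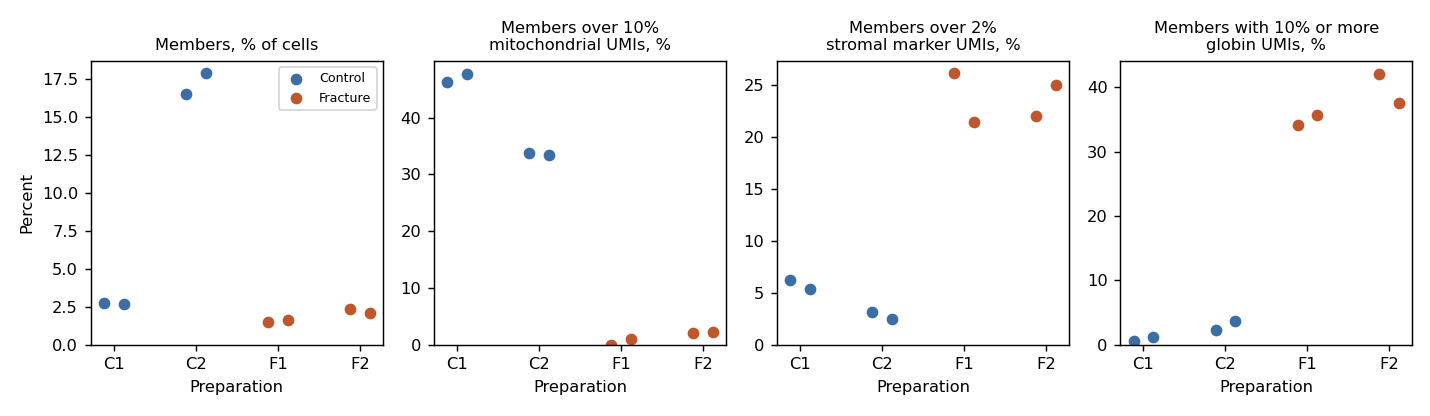
Each point is 1 library, placed over its preparation (C, Control; F, Fracture), and the 4 panels give percentages. Members are most frequent in Control preparation 2 (16.5% and 17.9% of cells), and members with 10% or more globin UMIs are more frequent in the Fracture libraries.

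A minority of members held a UMI of Kit or Gata2, genes of earlier progenitors that basophil-lineage cells, with at least 20 Mcpt8 and Prss34 UMIs per 10000, held as well. Kit encodes CD117, the receptor for stem cell factor and a target of the depletion beads, and at 2000 UMIs it was seen in 14.1% and 4.37% of Control members and 3.76% and 3.50% of Fracture members. In chondrocyte cells the share was 0% to 0.144%, and in basophil-lineage cells 3.99% to 8%. Without thinning the shares in members were 27.2%, 14.1%, 10.8% and 11.5%. The means at 2000 UMIs were 9.26% ± 6.91 and 3.63% ± 0.189 (SD, n = 2 each), and the two-sided exact permutation test gave its smallest p of 0.33. Without Control preparation 1 the difference went from -5.63 to -0.744 percentage points, and within both limits the groups overlapped. Gata2, a transcription factor of stem and early progenitor cells, was seen in 16.4% and 1.96% of Control members and 4.84% and 4.55% of Fracture members, in 0.123% to 1.46% of chondrocyte cells and in 65.4% to 86.9% of basophil-lineage cells, so it was commoner there than in members. Myb was seen in 25.7% and 9.20% of Control members and 8.06% and 9.09% of Fracture members, and in 19.2% to 32% of basophil-lineage cells.

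Members with a Kit or Gata2 UMI differed from the others in every preparation. They were taken from members with at most 2% stromal marker UMIs, thinned to 2000 UMIs, and numbered 71, 77, 14 and 19. Myb, a progenitor transcription factor, was at 711, 305, 643 and 421 CPM against 118, 46.2, 27.3 and 52.5 CPM in the other members. Apoe (apolipoprotein E) was at 1852, 584, 1393 and 1158 CPM against 245, 57.3, 35.2 and 85 CPM, and Ifitm1, an interferon-inducible membrane protein, at 1190.1, 403, 1321 and 421 CPM against 100, 19.0, 43.0 and 7.50 CPM. These 3 genes were higher beside Kit or Gata2 in all 4 preparations. Other early progenitor genes did not all share this order, with Cd34, a stem cell surface antigen, at 7.04, 19.5, 0 and 0 CPM against 9.09, 2.06, 31.2 and 35 CPM and Meis1, a stem cell transcription factor, at 119.7, 13, 35.7 and 0 CPM against 9.09, 0.412, 0 and 0 CPM. Mpo, the myeloperoxidase of neutrophil and monocyte precursors, was at 127, 45.5, 71.4 and 0 CPM against 59.1, 6.18, 0 and 0 CPM, higher beside Kit or Gata2 in 3 of 4 preparations, and the part of myeloid RNA in these differences was not tested. Ctse, Hbb-bs and Slc4a1 were lower beside Kit or Gata2 in all 4 preparations. Ctse was at 84.5, 292, 35.7 and 52.6 CPM against 464, 736, 1145 and 1168 CPM, and Hbb-bs, an adult beta globin gene, at 77.5, 688, 214 and 605 CPM against 6186, 10734, 83894 and 91440 CPM. Slc4a1, the band 3 anion exchanger, was at 28.2, 58.4, 0 and 78.9 CPM against 177, 345, 1312 and 1290 CPM. Epor, the erythropoietin receptor, did not share this order in Control preparation 2, at 56.3, 182, 71.4 and 26.3 CPM against 170.5, 173, 188 and 118 CPM. Car1, which the rule used, was at 1472, 1338, 1786 and 2132 CPM against 1464, 1403, 1406 and 1152 CPM. Klf1, which the rule also used, was lower beside Kit or Gata2 in all 4 preparations, at 169, 195, 143 and 263 CPM against 384, 392, 508 and 500 CPM. So was Gata1, at 155, 97.4, 71.4 and 132 CPM against 168, 169, 168 and 157.5 CPM. The Fracture sets of members with Kit or Gata2 are small, and no test was made. In members with Kit or Gata2, Cd34 rested on 1, 3, 0 and 0 UMIs and Meis1 on 17, 2, 1 and 0. Mpo rested there on 18, 7, 2 and 0 UMIs and Epor on 8, 28, 2 and 1. In the Fracture sets Gata1 rested on 2 and 5 UMIs, Klf1 on 4 and 10, Ctse on 1 and 2 and Slc4a1 on 0 and 3. The orders of Cd34, Meis1, Mpo, Epor and Gata1 are uncertain where counts are this low.

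**Figure D2:**
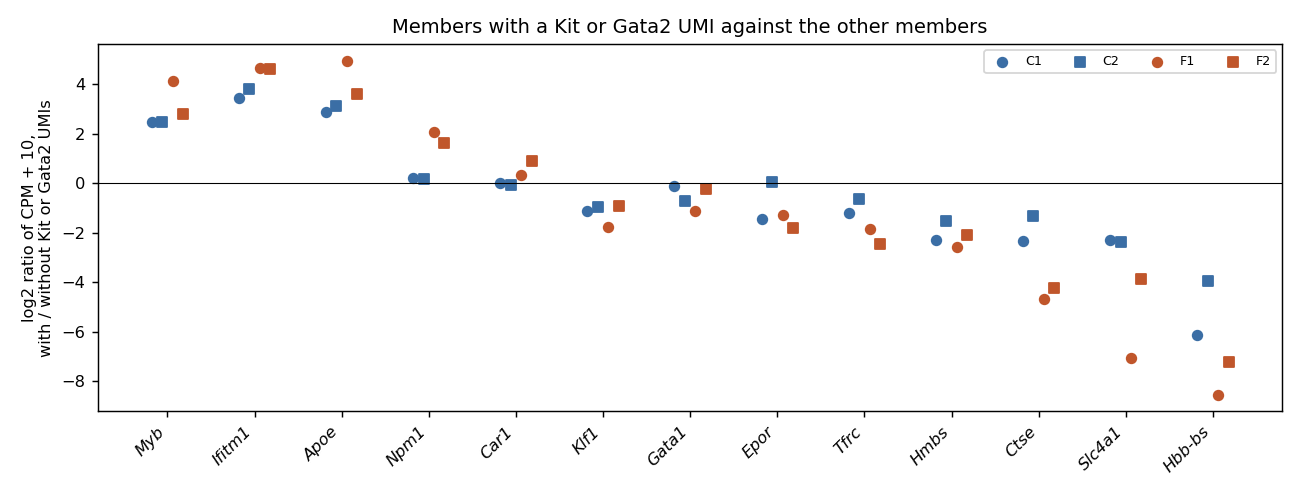
Points give, for each preparation (C, Control; F, Fracture), the log2 ratio of summed CPM plus 10 in members with a Kit or Gata2 UMI over the other members, at 2000 UMIs per cell. Myb, Ifitm1 and Apoe lie above 0 and Ctse, Slc4a1 and Hbb-bs below 0 in all 4 preparations.

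Globin load set the members of the groups apart. The median share of UMIs from Hba-a1, Hba-a2, Hbb-bs and Hbb-bt was 0.109% and 0.680% in the Control and 5.07% and 5.92% in the Fracture preparations. Members with 10% or more globin UMIs numbered 3 of 345 and 40 of 1359 in Control and 65 of 186 and 114 of 286 in Fracture, or 0.870%, 2.94%, 34.9% and 39.9%. The means were 1.91% ± 1.47 and 37.4% ± 3.47 (SD, n = 2 each), the preparations did not overlap, and the two-sided exact permutation test gave its smallest p of 0.33. This measure and its limit of 10% were set after the data were seen. Without the limit on Alas2 the shares were 1.16% and 5.04% against 45.4% and 48.7%, and within both limits 1.81% and 4.26% against 40.8% and 44.9%. In chondrocyte cells the median globin share was 0% and 0.00786% of UMIs in Control and 0.0206% and 0.0235% in Fracture. Over all other cells it was 0% and 0.0108% against 0.0212% and 0.0251%, so both backgrounds also lay above in Fracture, at far lower levels.

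**Figure D3:**
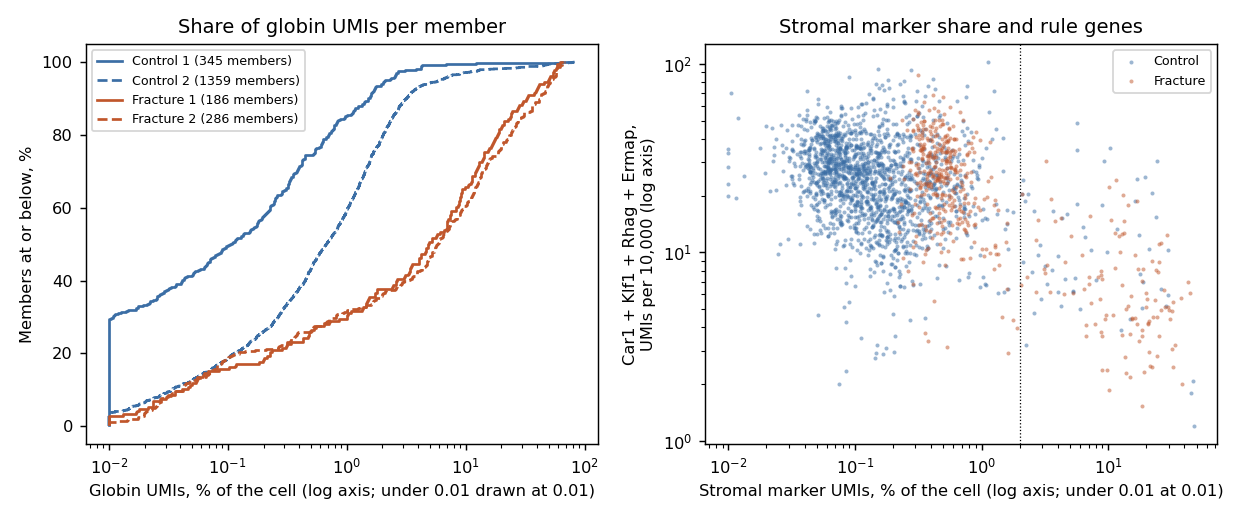
Left, the cumulative share of members (vertical axis, percent) by globin UMIs as a percent of the cell (log axis), 1 line per preparation. Right, each point is a member, with stromal marker UMIs as a percent of the cell against the summed Car1, Klf1, Rhag and Ermap UMIs per 10000 (log axes), and the dotted line marks 2%, beyond which lie 5.80% and 2.80% of Control and 23.7% and 23.4% of Fracture members.

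Members with at most 2% stromal marker UMIs were then sorted by globin load, and CPM were computed without the 4 globin genes. Under 1% globin there were 274 and 777 Control and 42 and 74 Fracture members, or 84.3%, 58.8%, 29.6% and 33.8% of each preparation. At 10% or more there were 3, 37, 58 and 96, so values there are given for Control preparation 2 and both Fracture preparations only. Myb was at 112 to 387 CPM under 1% globin, at 6.21 to 17.2 CPM from 1 to 10% and at 0 to 2.14 CPM above. Slc4a1 was at 14.4 to 87.3 CPM in the lowest class, and in the highest at 2965 CPM in Control and 2924 and 2805 CPM in Fracture. From 1 to 10% globin it was higher in both Fracture preparations, at 447 and 385 against 818 and 776 CPM in Control against Fracture. Slc25a37, the mitochondrial iron importer mitoferrin, differed in the lowest class, at 234 and 292 against 62.9 and 56.7 CPM in Control against Fracture, and was at 3292 against 3141 and 2955 CPM in the highest. The median mitochondrial share in the lowest class was 10.0% and 9.71% in Control and 2.16% and 2.33% in Fracture, and its part in that difference was not tested.

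**Figure D4:**
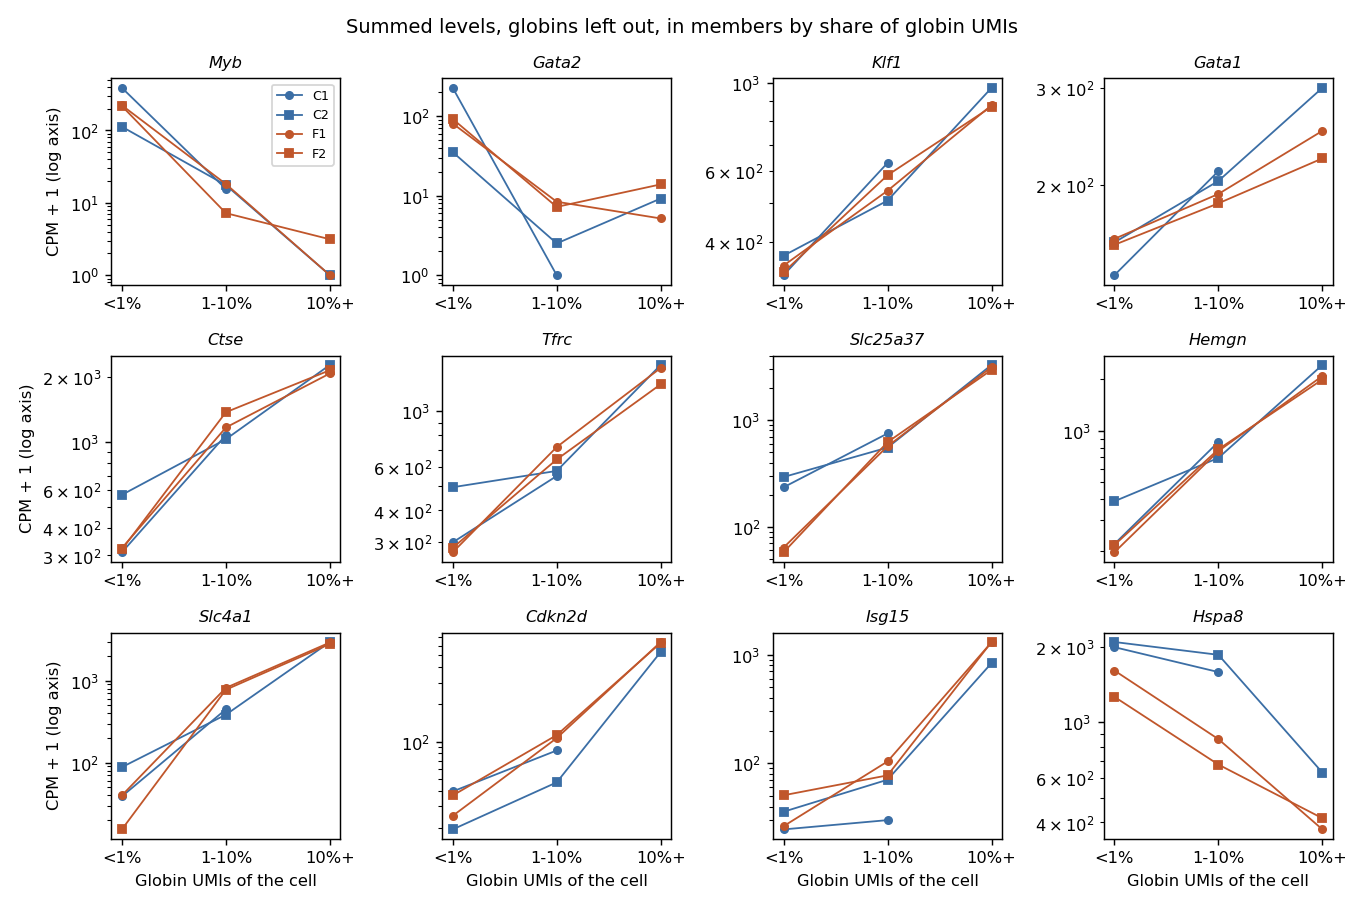
Summed CPM plus 1, globin genes left out (log axes), of 12 genes in members with under 1%, 1 to 10% and 10% or more globin UMIs, 1 line per preparation (C, Control; F, Fracture), with sets under 20 cells left out. Myb is lower and Slc4a1 and Cdkn2d are higher in classes with more globin in both groups, and Hspa8 lies lower in Fracture in each class.

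Day 14 after fracture was compared with no fracture by summing members per preparation and testing 10654 genes with edgeR's quasi-likelihood test. At a Benjamini-Hochberg adjusted p under 0.05, 21 genes (0.197%) were higher and 1 (0.00939%) was lower in Fracture. At an unadjusted p under 0.05, 1186 were higher and 729 lower. DESeq2 called 519 higher (4.87%) and 51 lower (0.479%). The edgeR count turned on single preparations, with 2924 higher and 2290 lower without Control preparation 1, 1796 and 1317 without Control preparation 2, and at most 2 higher and 0 lower without either Fracture preparation. In these fits the lone preparation of a group is assumed to vary like the pair of the other group. With the replicate number as a block it was 0 and 0, with 1068 and 422 at an unadjusted p under 0.05. Within both limits it was 0 of 8906, with 279 higher and 217 lower at an unadjusted p under 0.05.

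Most called genes were at a lower level in members than in the other cells around them. In 19 of the 22, all higher in Fracture, the level in Fracture members was 17.3% to 45.9% of that over all other Fracture cells. As examples picked after their values were seen, Spp1, which encodes the bone matrix protein osteopontin, was at 153 and 87.9 CPM in Control and 2349.5 and 2888 CPM in Fracture members (log2 fold change 4.65 ± 0.35 SE, edgeR adjusted p = 0.0396), and at 4056 and 3546 against 12128 and 11160 CPM in all other cells. The collagenase gene Mmp13 was at 15.1 and 16.2 against 418 and 284 CPM (4.62 ± 0.28, edgeR adjusted p = 0.0378) in members and at 446 and 484 against 1191 and 1228 CPM in all other cells. Rbp4, a retinol carrier, was at 2.39 and 1.32 against 160.4 and 149 CPM (6.74 ± 0.28, edgeR adjusted p = 0.0233). Of the 5 lists of bone and vessel cells, those of chondrocytes and osteoblasts were higher in Fracture. The chondrocyte list (12 genes, none at 0) summed to 2699 and 632 against 22930 and 27630 CPM in members and to 596 and 146 against 2025 and 2027 CPM in members with at most 2% stromal marker UMIs. The osteoblast list (11 genes) summed to 10200 and 4538 against 27600 and 28700 CPM and, in those members, to 1921 and 667 against 2360 and 2481 CPM. The groups overlapped for the stromal list, at 2096 and 365 against 1197 and 1342 CPM, the endothelial list, at 234 and 45.4 against 165 and 247 CPM, and the smooth muscle list, at 224 and 11.6 against 177 and 52.1 CPM. The part of this RNA in the calls was not tested.

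The other 3 called genes were, in the group where they were higher, at a higher level in members than in other cells. Cdkn2d (chromosome 9, 21288410 to 21291407 on GRCm38), which encodes the cell cycle inhibitor p19, was at 44.2 and 38.9 CPM in Control and 167 and 175 CPM in Fracture members and rose in Fracture (log2 fold change 2.22 ± 0.18 SE, edgeR adjusted p = 0.0396). In all other cells Cdkn2d was at 84.2 and 63.0 CPM in Control, above the Control members, and at 55.6 and 52.1 CPM in Fracture. Within both limits its log2 fold change in members was 1.97 with an edgeR adjusted p of 0.408. Apol11b (chromosome 15, 77633946 to 77643286), of the apolipoprotein L family, was at 6.76 and 7.62 against 48.5 and 47.6 CPM and rose too (2.86 ± 0.24, edgeR adjusted p = 0.0396), with 2.73 and an edgeR adjusted p of 0.408 within both limits. The predicted gene Gm26917, which the rule for named genes leaves out, fell (-2.95 ± 0.25, edgeR adjusted p = 0.0396), with -1.31 and an edgeR adjusted p of 0.731 within both limits. It was at 745 and 504 CPM in Control and 64.9 and 76.6 CPM in Fracture members. In all other cells it was also lower in Fracture, at 70.8 and 142 against 27.8 and 25.5 CPM, so the fall was not particular to members.

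Cdkn2d and Apol11b were both highest in globin-rich members. At 10% or more globin, Cdkn2d was at 532 CPM in Control preparation 2 and at 641 and 631 CPM in Fracture, and under 1% at 18.4 to 38.3 CPM. From 1 to 10% it was at 83.6 and 45.6 against 106 and 112 CPM in Control against Fracture. Apol11b was at 201 CPM against 187 and 237 CPM in the highest class and at 0 to 1.46 CPM in the lowest. From 1 to 10% it was at 14.5 and 6.83 against 44.2 and 29.0 CPM, so for both genes the Fracture values lay above the Control values in that class. Globin-rich members averaged 37.4% of Fracture and 1.91% of Control members, and the part of this mix in the summed levels was not tested.

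None of the 16 lists of erythroid, cell cycle and response genes held a gene called by edgeR, and they are described by counts and medians. A gene is said to lie above when both Fracture preparations exceeded both Control preparations in CPM, and below in the opposite case. Over all 10654 genes 19.5% lay above and 37.8% below, with a median log2 fold change of -0.0053. Within both limits 12.5% lay above and 27% below, with a median of -0.04.

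No transcription factor of the lineage was called by edgeR, and DESeq2 called 1, Bcl11a. Gata1, the master regulator of erythroid genes, was at 137 and 178 CPM in Control and 138 and 128 CPM in Fracture (log2 fold change -0.10 ± 0.25 SE, edgeR adjusted p = 0.849). Gfi1b, a repressor needed for red cell maturation, was at 115 and 137 against 96.1 and 97.8 CPM (-0.22 ± 0.22, adjusted p = 0.630). For both genes the sign of the change turned within both limits, to 0.16 and 0.02. Among 19 tested factors 3 lay above and 7 below, with a median of -0.10, and within both limits 6 above and 3 below with a median of 0.15. Bcl11a, known for silencing fetal globin genes, was at 286 and 223 against 103 and 105 CPM (-1.10 ± 0.18, adjusted p = 0.114), with Fracture below Control and a DESeq2 adjusted p of 0.00566. Ldb1, which bridges GATA1 complexes, was at 149 and 139.9 against 72.8 and 70.3 CPM (-0.85 ± 0.17, adjusted p = 0.137), and Ikzf1, which encodes Ikaros, at 174 and 172 against 96.1 and 80.6 CPM (-0.81 ± 0.18, adjusted p = 0.151). Tfdp2, a partner of E2F factors, was at 126 and 168 against 214 and 234 CPM (0.75 ± 0.27, adjusted p = 0.251). Bcl11a was lower in Fracture in the lower classes of globin load, at 325 and 289.8 against 217 and 227 CPM under 1% globin and at 189 and 179.7 against 88.4 and 103 CPM from 1 to 10%. At 10% or more it was not, at 32.8 CPM in Control preparation 2 and 41.6 and 36.4 CPM in Fracture. Tfdp2 moved with globin load, from 93.0 to 138 CPM in the lowest class to 768 to 811 CPM in the highest.

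Kit and Gata2 differed widely between the Control preparations. Kit was at 91.5 and 19.7 CPM in Control and 22.8 and 16.1 CPM in Fracture (log2 fold change -1.26 ± 0.70 SE, edgeR adjusted p = 0.397). Gata2 was at 184 and 16.5 against 30.2 and 37.0 CPM (-1.28 ± 1.02, adjusted p = 0.550), so the Fracture values lay between the Control values. Without Control preparation 1 its log2 fold change was 1.09. When Control preparation 2 was dropped instead, it was -2.19, so the direction was set by the Control preparation kept. Myc, a growth-promoting transcription factor, was at 104 and 36.8 against 29.2 and 26.1 CPM (-1.11 ± 0.46, adjusted p = 0.292), with both Fracture values below both Control values. Kit and Gata2 belong to the list of early progenitor genes, and Myc does not. Of 14 tested genes of that list 1 lay above and 2 below, with a median of -0.28. Within both limits 2 lay above and 0 below with a median of -0.09.

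No receptor or signalling gene was called by edgeR, and DESeq2 called 2 higher. Epor was at 128 and 166 CPM in Control and 119.8 and 104 CPM in Fracture (log2 fold change -0.25 ± 0.25 SE, edgeR adjusted p = 0.630), and the change turned to 0.21 within both limits, where the groups overlapped. Bcl2l1 encodes BCL-XL, a survival factor of maturing erythroblasts, and was at 19.9 and 13.8 against 38.6 and 47.9 CPM (1.57 ± 0.25, adjusted p = 0.112). It lay above in Fracture, and DESeq2 gave an adjusted p of 0.00799. Bcl2l1 moved with globin load, and the order of the groups was not the same in each class. It was at 12.1 and 10.0 against 5.99 and 5.07 CPM under 1% globin, lower in Fracture, and at 14.5 and 10.45 against 17.2 and 26.9 CPM from 1 to 10%, higher in Fracture. At 10% or more it was at 209 CPM in Control preparation 2 and 149.8 and 149.7 CPM in Fracture. The Fracture values of Bcl2l1 rest on 4 and 6 UMIs under 1% globin and on 7 and 13 from 1 to 10%. Control preparation 1 held 4 UMIs from 1 to 10%, so the order of the groups in both lower classes is uncertain. Of 18 tested genes of erythropoietin and stem cell factor signalling 5 lay above and 4 below, with a median of 0.07, and within both limits 2 above and 2 below with a median of -0.11.

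Of 14 tested haem synthesis genes 1 lay above and 3 below, with a median of 0.15, and within both limits 3 above and 1 below with a median of 0.44. Fech, ferrochelatase, which inserts the iron in the last step, was at 110.2 and 209.9 CPM in Control and 307 and 302 CPM in Fracture (log2 fold change 1.06 ± 0.39 SE, edgeR adjusted p = 0.264). Of 14 iron genes 3 lay above and 8 below, with a median of -0.06, and within both limits 4 above and 5 below with a median of 0.03. Tfrc, the transferrin receptor, was at 309 and 542 against 494 and 439.8 CPM (0.27 ± 0.36, adjusted p = 0.734), with Control values on both sides of the Fracture values. Slc25a37 was at 294 and 463 against 647 and 687 CPM (0.96 ± 0.33, adjusted p = 0.245). Tfr2, a transferrin receptor that also binds the erythropoietin receptor, was at 89.1 and 86.4 against 43.6 and 47.6 CPM (-0.77 ± 0.19, adjusted p = 0.159), and within both limits its log2 fold change was -0.10.

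All 5 tested members of the globin list, 4 globin genes and Hemgn, lay above in Fracture, with a median of 2.22. Within both limits all lay above again with a median of 2.13. Hbb-bs was at 3340.5 and 10154 CPM in Control and 39907 and 47978 CPM in Fracture (log2 fold change 2.82 ± 0.66 SE, edgeR adjusted p = 0.156). Hbb-bt was at 1456 and 5313 against 13477 and 15592 CPM (2.22 ± 0.70, adjusted p = 0.227). Of the alpha globin genes, Hba-a1 was at 1558 and 4721 against 10328 and 13036 CPM (2.02 ± 0.63, adjusted p = 0.225) and Hba-a2 at 522 and 1226 against 4224 and 5606 CPM (2.62 ± 0.54, adjusted p = 0.139). None of the 4 passed the edgeR threshold, and DESeq2 called all 4 with adjusted p of 2.77e-06 to 0.00428. Hba-a1 and Hba-a2 are near-identical copies, as are Hbb-bs and Hbb-bt, so the split within each pair is uncertain. Hemgn, the other tested member of this list, was at 275 and 563 against 565 and 567 CPM (0.56 ± 0.43, adjusted p = 0.531). It lay above by a narrow margin over Control preparation 2.

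Among 18 tested genes of the red cell membrane and cytoskeleton 9 lay above and 2 below, with a median of 0.42, and within both limits 10 above and 0 below with a median of 0.59. Slc4a1 was at 98.3 and 279 CPM in Control and 665 and 674 CPM in Fracture (log2 fold change 1.94 ± 0.57 SE, edgeR adjusted p = 0.203), and DESeq2 gave an adjusted p of 0.00445. Cd36, a fatty acid transporter of early erythroid cells, was at 15.5 and 14.7 against 40.1 and 36.3 CPM (1.50 ± 0.21, adjusted p = 0.0936). Both genes lay above in Fracture, and both moved with globin load. Under 1% globin neither lay above, with Slc4a1 at 37.8 and 87.3 against 38.9 and 14.4 CPM and Cd36 at 14.1 and 8.0 against 1.50 and 7.61 CPM. From 1 to 10% both lay above, Slc4a1 at 447 and 385 against 818 and 776 CPM and Cd36 at 14.5 and 16.7 against 29.5 and 26.9 CPM. Cd36 counts there were low outside Control preparation 2, at 4, 12 and 13 UMIs. At 10% or more Slc4a1 was at 2965 CPM in Control preparation 2 and 2924 and 2805 CPM in Fracture. In that class Cd36 was at 159.7 CPM against 191.4 and 160.4 CPM. Aqp1, the water channel of the red cell, was at 417 and 538 against 428 and 428 CPM (edgeR adjusted p = 0.995), with the Fracture values inside the Control range.

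Most members held RNA of dividing cells. At 2000 UMIs, Top2a or Mki67 was seen in 76.5% and 94.7% of Control members and 87.6% and 86.0% of Fracture members, and in 6.97% to 11.4% of chondrocyte cells. The means were 85.6% ± 12.9 and 86.8% ± 1.15 (SD, n = 2 each) and the groups overlapped (two-sided exact permutation test, p = 1). The difference of 1.20 percentage points became -7.90 without Control preparation 1 and 10.3 without Control preparation 2. It was 7.49 points without thinning, and within both limits 14.3 points, from 61.3% and 94.0% against 90.8% and 93.0%, where the groups overlapped. Mki67 was at 1026 and 1730 against 1195 and 1048 CPM (log2 fold change -0.16 ± 0.36 SE, edgeR adjusted p = 0.842) and Top2a at 893 and 1226 against 829 and 757 CPM (-0.27 ± 0.28, adjusted p = 0.652) in summed members, and within both limits the changes turned to 0.25 and 0.09. Of 27 tested S phase genes 0 lay above and 10 below, with a median of -0.21, and within both limits 1 above and 0 below with a median of 0.04. Of 29 G2M genes 6 lay above and 6 below, with a median of 0.20, and within both limits 15 above and 0 below with a median of 0.41.

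Of 21 chaperone genes 1 lay above and 14 below, with a median of -0.11, and within both limits 1 above and 14 below with a median of -0.09. Hspa8, the constitutive HSC70 chaperone, was at 1844 and 1914 CPM in Control and 944 and 735 CPM in Fracture (log2 fold change -1.0 ± 0.23 SE, edgeR adjusted p = 0.156), with a DESeq2 adjusted p of 0.0112. Hsph1, which helps HSC70 exchange its nucleotide, was at 173 and 167 against 60.4 and 56.9 CPM (-1.37 ± 0.17, adjusted p = 0.0823), with a DESeq2 adjusted p of 4.31e-04. Both were lower in Fracture also at like globin load, Hspa8 at 1991 and 2087 against 1608 and 1263 CPM under 1% globin and at 1585 and 1856 against 857 and 679 CPM from 1 to 10%, and Hsph1 at 190.2 and 205 against 129 and 125 CPM and at 134 and 142 against 56.5 and 33.1 CPM. Of 19 oxidant defence genes 8 lay above and 4 below, with a median of 0.30, and within both limits 6 above and 3 below with a median of 0.20. Sod1, the cytosolic superoxide dismutase, was at 254 and 319.9 against 116 and 119.7 CPM (-1.13 ± 0.25, adjusted p = 0.141) and lay below. The metallothioneins, which bind zinc and copper, were at 254 and 228 against 359 and 348 CPM for Mt1 (0.72 ± 0.18, adjusted p = 0.160) and at 83.6 and 105 against 125 and 156 CPM for Mt2 (0.73 ± 0.27, adjusted p = 0.260). In all other cells Mt1 was at 49.8 and 56.9 against 238 and 313 CPM.

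Among 23 interferon-stimulated genes 6 lay above and 4 below, with a median of 0.15, and within both limits 6 above and 1 below with a median of 0.22. Isg15, a ubiquitin-like protein, was at 26.7 and 66.3 CPM in Control and 225 and 269 CPM in Fracture (log2 fold change 2.50 ± 0.52 SE, edgeR adjusted p = 0.139), and Rsad2, which encodes the antiviral enzyme viperin, at 15.1 and 38.3 against 110.4 and 147 CPM (2.34 ± 0.52, adjusted p = 0.144). Both lay above in Fracture, and both were higher in globin-rich members. Isg15 was at 23.7 to 49.9 CPM under 1% globin and at 835, 1298 and 1304 CPM at 10% or more in Control preparation 2 and the Fracture preparations. Rsad2 was at 10.6 to 22.0 CPM and at 536, 707 and 689 CPM. From 1 to 10% both genes also lay above in Fracture. Isg15 was at 29.1 and 69.7 against 103 and 76.6 CPM there and Rsad2 at 29.1 and 36.8 against 41.8 and 45.5 CPM. Control preparation 1 held only 8 UMIs of each gene in that class.

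Other lists gave different medians under the limits on stromal and mitochondrial RNA. The 17 tested immediate early genes had a median of 0.91, and 6 lay above and 0 below, whereas within both limits the median was -0.44 with 0 above and 0 below. Of 21 glycolysis and hypoxia genes 15 lay above and 2 below, with a median of 0.99, and within both limits 4 above and 2 below with a median of 0.24. Of 24 ribosome biogenesis genes 0 lay above and 15 below, with a median of -0.22, and within both limits 3 above and 7 below with a median of 0.02. The median of glucocorticoid-responsive genes and metallothioneins was 0.35 and -0.50.

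**Figure D5:**
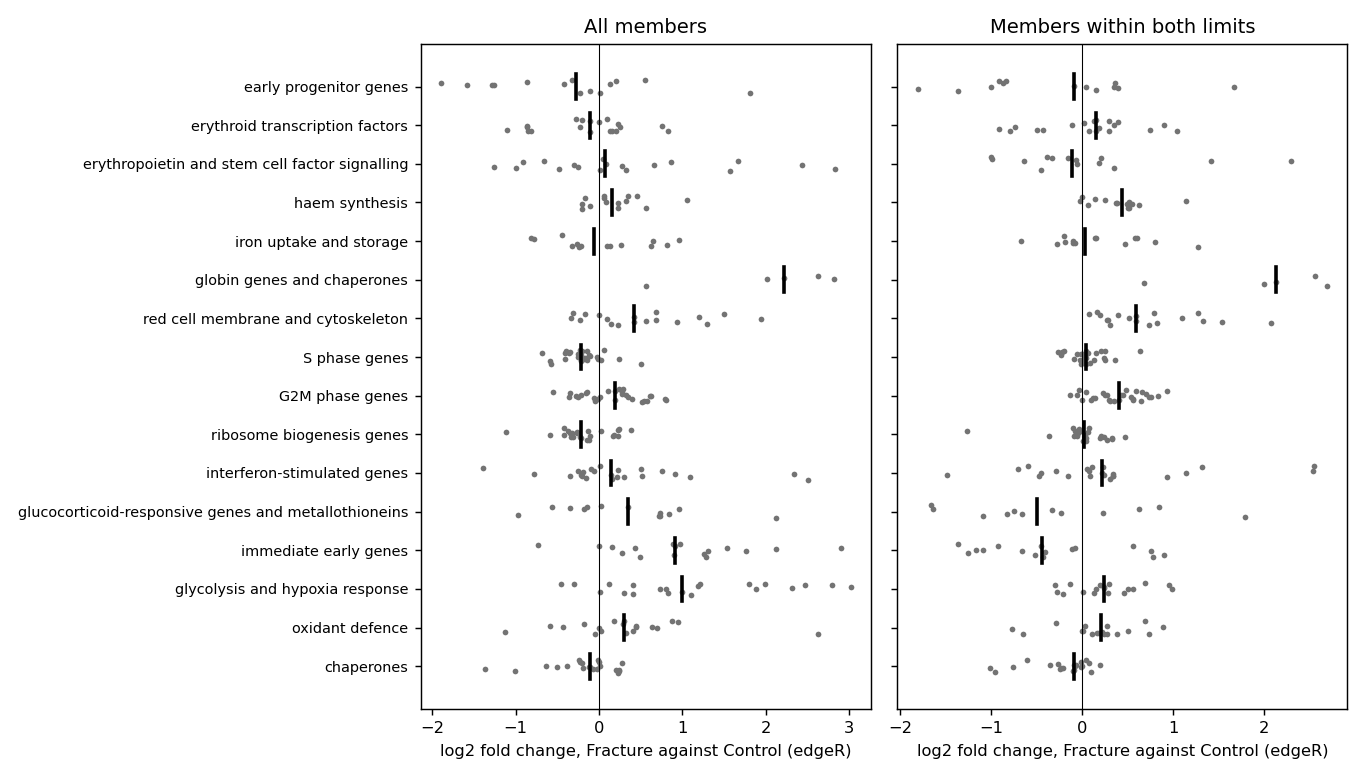
Each point is a tested gene of the named list, placed at its edgeR log2 fold change (Fracture against Control, horizontal axis), in all members (left) and in members within both limits (right), and bars are list medians. The globin list has medians of 2.22 and 2.13, and the immediate early list of 0.91 and -0.44.

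The fracture effect in members was set against that in basophil-lineage cells of the same suspensions, chosen after the Alas2-high class proved too small. These cells numbered 1251, 661, 26 and 25. With the preparation as a block, 1 of 12163 genes (0.00822%), Slpi, had an edgeR adjusted p under 0.05 for the difference between the effects. DESeq2 called 26 genes. At an unadjusted p under 0.05 the edgeR effect was higher in members for 1138 genes and lower for 209, and without either Fracture preparation no gene was called. The median log2 difference over all 12163 genes was 0.388, so the counts of 1138 and 209 genes are not centred on no difference. With RLE size factors in place of TMM the median was 0.147, and 609 genes were higher and 349 lower. Without Control preparation 1 the median was -0.044. For Hbb-bs the log2 difference was 0.68 ± 0.29 SE (edgeR adjusted p = 0.445), at 12.8 and 53.9 against 129 and 221 CPM in basophil-lineage cells. For Cdkn2d it was 2.03 ± 0.34 SE (edgeR adjusted p = 0.316). Neither difference passed the test.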

How the data were processed

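Single-cell RNA libraries of bone stromal cell suspensions (Chromium 3′ kit, version 3) were analysed from 2 Control and 2 Fracture preparations with 2 libraries each. The authors deposited raw UMI counts per gene and barcode for each library, with no normalisation. The submitters' processing notes name bcl2fastq 2.19.1.403, UMI-tools 1.0.0, STAR 2.7.3a, Subread with featureCounts 1.6.4 and the mm10 build, and the study's methods name STARsolo and EmptyDrops, so the counting step and the barcode selection of these tables are not settled. Libraries held 56543151 to 89126291 UMIs, and counts set the precision of each value. Counting error is only part of the error between preparations.

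Members and gene lists were chosen with earlier results of these data known. Doublets were called with scanpy 1.11.5 at an expected rate of 0.06, but 2 Fracture libraries had under 10 calls, so doublets were kept and removed only as an alternative. Members were summed per preparation and tested with edgeR 4.0.16 (quasi-likelihood, TMM, filterByExpr, Benjamini-Hochberg over all genes tested, rule genes left out of the calls) on R 4.3.3, and DESeq2 1.42.0 was an alternative. Shares were compared with two-sided exact permutation tests over preparations. Scripts were tested on simulated data. The other alternatives were the scaling, the low-count filter, the depth, the rule's sum, single libraries, a replicate block and leaving out each preparation. Limits on stromal and mitochondrial RNA, TMM on genes enriched in members, a crossed block, the globin share and the basophil-lineage class were added after the data were seen. The late class fixed in the design held too few cells, so the basophil-lineage class took its place.

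Genes were named by rule: the 10 largest rises and falls among called, non-overlapping genes with a mean of at least 20 CPM, a level in members at or above that of other cells, and no predicted, rule or marker genes. To these came landmark genes and up to 4 genes of smallest p per list. Some genes that this rule names are not reported here. Gene coordinates are from GENCODE M21 (GRCm38).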

Additional observations from a re-analysis of the deposited data

Results flagged for a closer look

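Slpi, which encodes a secreted protease inhibitor of leukocytes and epithelia, was the gene whose fracture effect differed between members and basophil-lineage cells, and it is named because it was the only 1 called by edgeR among 12163 genes. In members it was at 5.97 and 2.29 CPM in Control and 28.2 and 31.2 CPM in Fracture (log2 fold change 3.21 ± 0.47 SE, edgeR adjusted p = 0.101). In basophil-lineage cells it was at 229 and 169.6 CPM in Control and 76.7 and 70.0 CPM in Fracture (-1.48 ± 0.25 SE, edgeR adjusted p = 0.0472). The log2 difference between the effects was 4.96 ± 0.41 SE (edgeR adjusted p = 0.0361), with both preparations of each group on the same side. All other cells held Slpi at 68.7 and 39.3 CPM in Control and 139 and 146 CPM in Fracture, and members within both limits at 2.98 and 2.35 CPM in Control and 1.43 and 5.72 CPM in Fracture. The part of RNA from other cells in this difference was not tested. Without either Fracture preparation, and within both limits, no gene was called in this comparison.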

How the results depend on the processing

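The share of members among cells, the share with Kit and the share with 10% or more globin UMIs kept their direction under every alternative run, and no alternative could give p under 0.33 with 2 preparations against 2. Leaving out 1 preparation gave differences of -15.3 to -0.803, -10.5 to -0.744 and 33.0 to 38.0 percentage points for them. The share with Top2a or Mki67 went from -7.90 to 10.3 points when 1 preparation was left out, with Control preparation 1 turning it, was -1.36 at 1000 UMIs, and was 7.49 without thinning and 14.3 within both limits.

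The number of genes called in members, 21 higher and 1 lower, moved with most choices, and the cause was not tested. It was 519 and 51 with DESeq2, 1025 and 327 with no low-count filter, 1228 and 950 with the 8 libraries as samples, which share preparations, 5 and 0 without doublets, and 4 and 0 both from 2000 UMIs and with TMM on enriched genes. It was 0 and 0 with the rule on thinned cells, with a sum of at least 8, under each limit on stromal or mitochondrial RNA and under both. Leaving out 1 preparation gave 1 to 2924 higher and 0 to 2290 lower. With a replicate block it was 0 and 0, and with the crossed replicate block 331 and 9. Same-numbered preparations deviated with a correlation of -0.115, and they share only a number. The comparison with basophil-lineage cells gave 26 genes with DESeq2, 139 with no filter, 0 to 698 when 1 preparation was left out and 0 within both limits.

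Of 37 named genes, 395 values kept direction and call, 39 lost and 58 gained a call and 26 turned sign, besides 80, 8, 52 and 8 with 1 preparation left out. Turned log2 fold changes on thinned cells were 0.25 (Gata1), 0.21 (Epor), 0.33 (Aqp1), 0.070 (Gfi1b), 0.23 (Mki67) and 0.14 (Top2a). Under the stromal limit they were 0.15 (Gata1), 0.042 (Epor), 0.18 (Aqp1), 0.057 (Gfi1b) and 0.041 (Mki67), and under both limits 0.16, 0.21, 0.17, 0.018 and 0.25 in that order and 0.093 (Top2a). With TMM on enriched genes they were 0.078 (Gata1), 0.18 (Aqp1) and 0.041 (Mki67). Without Control preparation 2 they were 0.19 (Gata1), 0.034 (Epor), 0.28 (Aqp1), 0.37 (Mki67) and 0.066 (Top2a), and without Control preparation 1 -0.18 (Tfrc) and 1.09 (Gata2). Without the other Control preparation in each case these genes were at -0.39 (Gata1), -0.54 (Epor), -0.28 (Aqp1), -0.59 (Mki67), -0.59 (Top2a), 0.83 (Tfrc) and -2.19 (Gata2). Singly, Gata1 was 0.028 with a sum of at least 8, Mki67 0.024 under the mitochondrial limit, and Aqp1 0.033 without doublets, 0.011 with 8 libraries, 0.023 with the replicate block, 0.024 crossed and 0.044 without Fracture preparation 1.

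Depth limits genes of low count in every preparation.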
